A study of Mus musculus with 4 samples.

Results

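Homeostatic microglia genes are the genes that mark resident microglia of the healthy central nervous system. The 9 measured here were P2ry12, Tmem119, Sall1, Siglech, Gpr34, Olfml3, Cx3cr1, Fcrls and Csf1r, out of 27998 genes in the tables. They were read in myeloid barcodes, meaning droplet barcodes with at least 2000 UMIs (unique molecular identifiers, which count captured RNA molecules) of which 10 or more came from Tyrobp, Fcer1g and Ctss together. These were 3610 of 7012 such barcodes in mIgG1, 3591 of 7498 in Ang2 Ab, 2773 of 6643 in Ctrl, against 2521 of 5427 in EC-Ang2. P2ry12, Tmem119, Sall1, Siglech, Gpr34, Olfml3 and Fcrls are called the 7 enriched genes, because blood-derived monocytes and macrophages also make Cx3cr1 and Csf1r, although other cells can carry some of the 7.

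Spinal cord cells from mice with experimental autoimmune encephalomyelitis (EAE), a mouse model of multiple sclerosis, were sorted as equal numbers of live CD45+ leukocytes and CD31+ endothelial cells and sequenced by droplet 3′ single-cell RNA-seq. All 4 groups received MOG35-55 peptide in complete Freund's adjuvant. The mIgG1 and Ang2 Ab groups were wild-type C57Bl/6JOlaHsd mice aged 15 weeks, given a control antibody or an antibody against angiopoietin-2 (Ang2, a vascular growth factor made by endothelial cells) from immunization onwards and taken 14 days after it. Ctrl and EC-Ang2 mice were C57Bl/6JCrl, 12 to 14 weeks old, and were taken at 12 days. EC-Ang2 mice carried a VE-cadherin-tTA driver and a Tet-OS-Ang2 transgene, so that endothelial cells overexpress Ang2 once doxycycline is withdrawn, and Ctrl mice were single-transgenic littermates. The pairs therefore also differed in substrain, age, day and dose of pertussis toxin, and values of one pair against the other are given side by side only.

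There was 1 library per condition. No test between conditions was possible, and all intervals below are 95% intervals that cover counting error only (exact Poisson for levels, exact binomial for shares, and for ratios of levels the exact binomial interval of the split of UMIs, and for ratios of shares the Katz interval). The number of animals behind a library is not given in the sources used here. Median depth of the myeloid barcodes was 6383 to 8600.5 UMIs. Each barcode was thinned to 2000 UMIs where detection was compared, unless full depth is stated. Barcodes were called cycling, by cell-cycle genes, on full-depth counts. The fraction of UMIs attributed to free RNA was 4.55% to 4.89% by library.

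Microglia are the resident macrophages of brain and spinal cord and arise from yolk sac progenitors. Their survival depends on signalling through Csf1r, whose ligands are Csf1 and Il34, and their steady-state gene program needs TGF-beta signalling together with the transcription factors PU.1 (Spi1) and Sall1. In EAE, monocytes carrying Ccr2 and Ly6c2 enter from the blood, and resident microglia lower much of the homeostatic program, so that the genes below report on both the cells present and their state.

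Promoters are shown for Fcrls, the member that differed most in level between libraries, and for P2ry12 and Olfml3, which share its chromosome. They run from 250 bases before to 50 after the RefSeq start (GRCm38.p6, written 5′ to 3′ on the gene's strand). Capitals mark matches on either strand to GAGGAA, the core bound by PU.1-type ETS factors, or to CAGAC, a SMAD motif. The windows lie on the minus strand at chr3:87263475-87263774 for Fcrls, chr3:59262936-59263235 for P2ry12 and chr3:103737952-103738251 for Olfml3.
Fcrls: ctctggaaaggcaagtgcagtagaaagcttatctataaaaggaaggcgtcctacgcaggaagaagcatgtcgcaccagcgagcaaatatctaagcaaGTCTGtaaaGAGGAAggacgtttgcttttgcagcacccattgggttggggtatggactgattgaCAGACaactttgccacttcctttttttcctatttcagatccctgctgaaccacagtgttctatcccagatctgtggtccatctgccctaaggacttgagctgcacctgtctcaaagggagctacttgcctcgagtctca
P2ry12: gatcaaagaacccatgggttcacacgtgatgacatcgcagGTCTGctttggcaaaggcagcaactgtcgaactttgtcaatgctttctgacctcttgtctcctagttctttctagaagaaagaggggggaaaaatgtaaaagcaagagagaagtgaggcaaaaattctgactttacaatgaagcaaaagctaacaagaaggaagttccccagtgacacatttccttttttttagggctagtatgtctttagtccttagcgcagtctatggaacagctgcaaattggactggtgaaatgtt
Olfml3: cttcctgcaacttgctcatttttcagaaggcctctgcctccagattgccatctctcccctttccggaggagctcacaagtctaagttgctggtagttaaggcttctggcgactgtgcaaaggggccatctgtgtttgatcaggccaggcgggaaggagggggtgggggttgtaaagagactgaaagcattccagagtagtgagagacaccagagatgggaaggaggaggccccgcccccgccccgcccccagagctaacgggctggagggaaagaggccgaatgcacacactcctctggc

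Fcrls held 1 GAGGAA and 2 CAGAC matches, P2ry12 held 1 CAGAC match and Olfml3 held none of either. Over 32851 promoter windows of this length, GAGGAA was found in 28.3%, CAGAC in 49.6% and the AP-1 motif TGANTCA in 7.81%, so single matches are common. Windows were matched for 6 of the 9 members, in 8 windows, since Sall1 has 3 starts. None of these 8 held TGANTCA. Siglech held 1 GAGGAA and 3 CAGAC matches, Cx3cr1 held 2 CAGAC matches, and 1 of the Sall1 windows held a CAGAC match. Tmem119 lies on chromosome 5, Siglech on 7, Sall1 on 8, Cx3cr1 on 9 and Gpr34 on X. A match is a stretch of letters and not evidence of binding.

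The genes that encode surface receptors were most often seen in Ctrl. P2ry12, the ADP receptor by which microglial processes sense tissue injury, was found at 37.0 CPM (counts per 1000000 UMIs, summed over all myeloid barcodes) in mIgG1, 56.1 in Ang2 Ab, 244 in Ctrl, against 25.5 in EC-Ang2. Its intervals were 35.0 to 39.0, 53.4 to 58.9, 238 to 251 and 23.4 to 27.7 CPM, and none overlapped another. After thinning, P2ry12 was detected in 5.10%, 7.21%, 29.1% and 4.44% of the myeloid barcodes in the same order.

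Gpr34, a receptor for lysophosphatidylserine, was at 22.4 CPM in mIgG1, 25.3 in Ang2 Ab, 103 in Ctrl, with 7.51 in EC-Ang2. The intervals of mIgG1 (20.9 to 24.0 CPM) and Ang2 Ab (23.4 to 27.2 CPM) overlapped, whereas Ctrl and EC-Ang2 stood apart. Cx3cr1, the receptor for the neuronal chemokine fractalkine, was at 158 CPM in mIgG1 and 164 in Ang2 Ab, with overlapping intervals of 154 to 162 and 159 to 168 CPM. It was at 340 CPM in Ctrl, against 53.5 in EC-Ang2. Csf1r, the growth factor receptor, was the most evenly spread of the 9 members between libraries, with 532 CPM in mIgG1, 508 in Ang2 Ab, 1024 in Ctrl, against 384 in EC-Ang2, and it was detected in 58.1%, 51.4%, 67.4% and 45.7% of the thinned barcodes.

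Siglech and Fcrls, the remaining surface proteins, gave the same order of libraries as P2ry12. Siglech, a lectin of microglia that plasmacytoid dendritic cells also carry, was at 31.9 CPM in mIgG1, 45.8 in Ang2 Ab, 172 in Ctrl, with 12.9 in EC-Ang2. Fcrls, an Fc receptor-like molecule, was at 47.8, 122, 495 and 22.8 CPM, which made it the member with the widest range. Fcrls was detected in 5.76% of the thinned barcodes in mIgG1, 11.1% in Ang2 Ab, 40.03% in Ctrl, against 2.301% in EC-Ang2.

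Tmem119, a transmembrane protein used to tell microglia from infiltrating macrophages, was at 88.0 CPM in mIgG1, 121 in Ang2 Ab, 407 in Ctrl, with 49.0 in EC-Ang2. Olfml3, a secreted olfactomedin-like protein, was at 156, 235, 732 and 79.8 CPM. Detection of Olfml3 after thinning was 18.0% in mIgG1 and 16.8% in Ang2 Ab, the reverse of the order of its CPM. Sall1, the transcription factor of the list, was sparse, with 192, 181, 324 and 37 UMIs in all, or 5.35, 6.41, 14.1 and 1.69 CPM, and the intervals of mIgG1 and Ang2 Ab overlapped. Ctrl was thus the highest library and EC-Ang2 the lowest for each of the 9 genes. The share of all genes in this order is not given here, and 23.6% of genes were lower in EC-Ang2 than in Ctrl by 1.5-fold or more. Libraries of different pairs are set side by side only.

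In endothelial-marked barcodes, 2088 to 3301 per library, the members were low. P2ry12 was at 0.192 CPM in mIgG1, 1.08 in Ang2 Ab, 3.95 in Ctrl, against 0.331 in EC-Ang2, and Csf1r at 19.0, 15.0, 16.3 and 6.22 CPM. Fcrls was at 1.15, 4.88, 10.7 and 0.463 CPM in these barcodes, which follows the order of its level in the myeloid barcodes. Tmem119 did so too, at 2.69, 3.10, 6.67 and 0.662 CPM. The levels of P2ry12, Sall1, Siglech, Gpr34, Olfml3, Cx3cr1 and Csf1r did not follow their order in the myeloid barcodes. The order differed only between libraries whose intervals overlapped, and for P2ry12 it rested on 2 UMIs in mIgG1. The Tmem119 intervals of mIgG1 and Ang2 Ab overlapped too, so these orders do not set the members apart.

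The members were found together more often than their single shares would give. P2ry12 and Tmem119 were detected together in 60 thinned barcodes of mIgG1 where the product of their shares gives 19.1, in 113 against 31.0 in Ang2 Ab, in 595 against 295 in Ctrl and in 27 against 6.35 in EC-Ang2. All 36 pairs of members exceeded that product in mIgG1, Ang2 Ab and Ctrl, and 33 of 36 did in EC-Ang2, where Sall1 was detected in 3 barcodes and had no barcode in common with Siglech, Gpr34 or Fcrls. The share of pairs of other genes above their product is not given here, so these counts are not shown to be particular to the members. The median ratio over the 36 pairs was 2.90 in mIgG1, 3.92 in Ang2 Ab, 1.89 in Ctrl, with 6.88 in EC-Ang2. This ratio can be larger where the shares are small, and the median phi coefficient, a correlation of presence across barcodes, was 0.164, 0.252, 0.373 and 0.171.

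**Figure D1:**
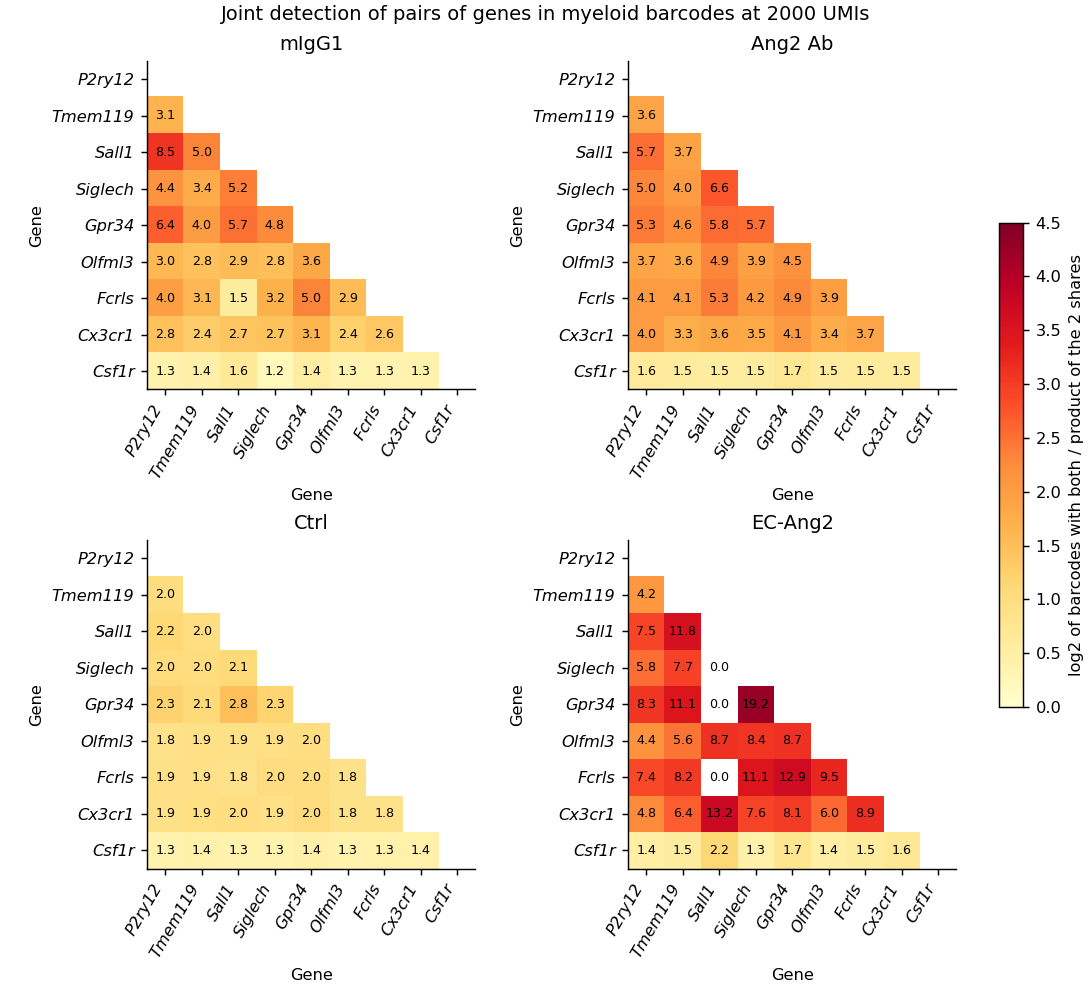
Each square gives a pair of members in one library, on thinned barcodes, coloured by the log2 of the number of barcodes with both over the number that the product of their shares gives, and the printed value is that ratio unlogged. The medians are 2.90 in mIgG1, 3.92 in Ang2 Ab, 1.89 in Ctrl, against 6.88 in EC-Ang2, and the 3 white squares of EC-Ang2 marked 0.0 are Sall1 pairs with no barcode in common.

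Pairs with Csf1r had low ratios, from 1.17 to 1.57 in mIgG1, from 1.48 to 1.66 in Ang2 Ab, from 1.31 to 1.37 in Ctrl and from 1.35 to 2.19 in EC-Ang2. A ratio cannot exceed the inverse of the share of the commoner gene. Csf1r was detected in 58.1%, 51.4%, 67.4% and 45.7% of the thinned barcodes, so its ratios had a low ceiling. They do not measure how closely Csf1r went with the other members. Cx3cr1 with the 7 enriched genes gave 2.35 to 3.14, 3.34 to 4.12, 1.8 to 2.05 and 4.79 to 13.2 in the same order. The median over the 21 pairs within the 7 enriched genes was 3.56, 4.52, 1.98 and 8.21. Among barcodes that already held 3 or more other enriched genes the median ratio was 1.05, 1.06, 1.02 and 1.02, over the 28, 34, 36 and 19 pairs with at least 5 barcodes in the product.

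A barcode with 3 or more of the 7 enriched genes after thinning is called a microglia-like barcode. There were 165 of 3610 in mIgG1 (4.57%, 3.91 to 5.30), 314 of 3591 in Ang2 Ab (8.74%, 7.84 to 9.72), 1087 of 2773 in Ctrl (39.2%, 37.4 to 41.0) and 67 of 2521 in EC-Ang2 (2.66%, 2.07 to 3.36). No interval overlapped another, and Ctrl stood far above the rest. Over 12 draws of the thinning the share was 4.46% to 4.88% in mIgG1, 8.52% to 8.97% in Ang2 Ab, 38.4% to 39.3% in Ctrl and 2.06% to 2.66% in EC-Ang2. None of the 7 genes was seen in 70.5% of the myeloid barcodes of mIgG1, 72.7% of Ang2 Ab, 41.4% of Ctrl, against 85.6% of EC-Ang2.

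The name was checked against other markers. The 6 genes of monocytes and macrophages (Ccr2, Ly6c2, Plac8, Chil3, Ms4a4c and F13a1) summed to 1122 to 1684 CPM in the microglia-like barcodes of the 4 libraries and to 4235 to 11883 CPM in barcodes with none of the 7, and all 6 had UMIs in both. The 5 genes of border-associated macrophages (Mrc1, Cd163, Lyve1, Pf4 and Cbr2) summed to 10.7 to 54.3 CPM against 30.0 to 89.7. Cd163 and Lyve1 were at 0 in the microglia-like barcodes of mIgG1, Ang2 Ab and EC-Ang2, as was Mrc1 in EC-Ang2. The rest of the 5 had UMIs there, and in Ctrl all 5 did. In barcodes with none of the 7, the least detected of the 5 was found in at most 0.0393%, so a value of 0 is near the floor. In the 23 border macrophage-marked barcodes of Ctrl, Fcrls was at 777 CPM and detected in 65.2%, above its level over all myeloid barcodes, while P2ry12 was at 43.5 and Tmem119 at 55.9 CPM. The other libraries had 3 to 15 such barcodes, with Fcrls at 18.2 to 76.2 CPM. The 4 plasmacytoid dendritic cell genes (Ccr9, Ly6d, Cox6a2 and Tcf4) went the other way in their sum. They summed to 222, 242, 192 and 299 CPM in the microglia-like barcodes of mIgG1, Ang2 Ab, Ctrl and EC-Ang2. In barcodes with none of the 7 they summed to 109, 111, 105 and 80.9 CPM. The most detected of the 4 was found in 16.3% to 29.9% of the microglia-like barcodes and the least detected in 0% to 0.606%. Ccr9 had 0 UMIs in those of EC-Ang2. The 3 B cell genes (Cd79a, Cd79b and Ms4a1) were also higher in sum, at 9.35 to 19.8 CPM against 1.47 to 3.70. In the microglia-like barcodes Cd79a and Ms4a1 were at 0 in Ang2 Ab and EC-Ang2, as was Cd79a in mIgG1. The 3 T cell genes (Cd3d, Cd3e and Cd3g) summed to 90.9 CPM against 56.2 in mIgG1 and 59.8 against 59.2 in Ang2 Ab. Their sums were 62.6 CPM against 65.3 in Ctrl and 73.4 against 28.9 in EC-Ang2. Whether such cells are among the microglia-like barcodes was not tested. Endothelial genes summed to 243 to 392 CPM in the microglia-like barcodes of the 4 libraries. Leaving out barcodes with 10 or more endothelial UMIs gave shares of microglia-like barcodes of 4.70%, 9.06%, 40.6% and 2.69%.

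The 3 granulocyte genes summed to 199 CPM in the microglia-like barcodes of mIgG1, 480 in Ang2 Ab, 2455 in Ctrl, with 363 in EC-Ang2, against 663, 1824, 12020 and 5456 CPM in barcodes with none of the 7. The 329 granulocyte-marked barcodes of Ctrl carried members, with Fcrls at 312 CPM (detected in 19.5%) and Olfml3 at 439 CPM (22.8%). In the 48 of mIgG1 these genes were at 41.1 and 37.0 CPM, and in the 348 of EC-Ang2 at 1.43 and 12.1 CPM. P2ry12 differed, at 28.6 CPM (detected in 5.17%) in those of EC-Ang2 beside 25.5 CPM (4.44%) over all its myeloid barcodes. The other members were lower there than over all myeloid barcodes of EC-Ang2. In EC-Ang2 barcodes with both Ccr2 and Ly6c2, P2ry12 was at 24.6 CPM, so its level did not set these barcodes apart in this library. The part of granulocyte RNA in the results was not tested.

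On full-depth counts the number of enriched genes per barcode had 2 peaks. In Ctrl 791 barcodes held none, 158 held 3 and 516 held 6, and in mIgG1 the same classes held 1607, 164 and 125 barcodes. In Ang2 Ab they held 2000, 126 and 188, and in EC-Ang2 1738, 56 and 33. After thinning the upper peak was visible in Ctrl alone, with 337 barcodes at 4 genes against 204 at 2, while in the other libraries no count exceeded the one before it. In EC-Ang2 the upper peak at full depth rests on 33 barcodes at 6 genes against 20 at 5. Barcodes at 6 genes were deeper, with medians of 18296, 12705.5, 8916.5 and 15898 UMIs in mIgG1, Ang2 Ab, Ctrl and EC-Ang2. Those at 0 genes had 6890, 5392.5, 6642 and 7296.5 UMIs, and the part of depth in the peaks was not tested.

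**Figure D2:**
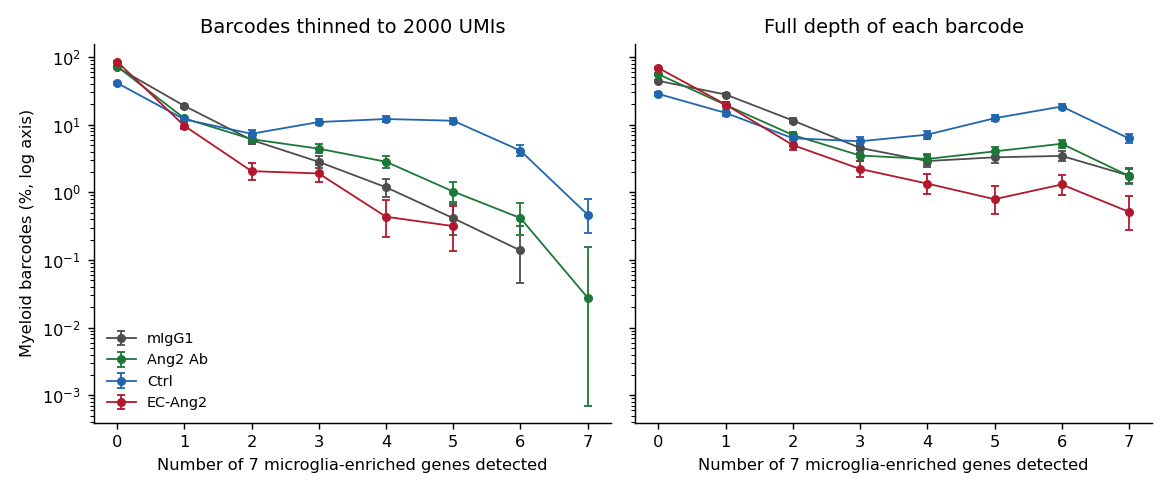
The share of myeloid barcodes (y axis, %, log scale, classes with 0 barcodes left out) is plotted against the number of the 7 enriched genes detected, from 0 to 7, after thinning to 2000 UMIs on the left and at full depth on the right, with exact binomial 95% bars for each library. At full depth Ctrl has 516 barcodes at 6 genes against 158 at 3, and EC-Ang2 has 33 against 56.

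In the antibody pair, the size of the difference in share was not the same on thinned and on full-depth counts. The share of microglia-like barcodes in Ang2 Ab over that in mIgG1 was a log2 ratio of 0.94 (0.67 to 1.20) after thinning. At full depth, 634 barcodes (17.7%, 16.4 to 18.9) in Ang2 Ab and 577 (16.0%, 14.8 to 17.2) in mIgG1 held 3 or more of the 7, a log2 ratio of 0.14, and these intervals overlapped. The myeloid barcodes of mIgG1 had a median of 8600.5 UMIs, against 6383 in Ang2 Ab, and the part of this in the full-depth ratio was not tested. With 5 or more genes at full depth the shares were 11.0% (10.02 to 12.10) in Ang2 Ab and 8.53% (7.64 to 9.49) in mIgG1.

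In the endothelial Ang2 pair, the share was far lower in EC-Ang2 at either depth. The log2 ratio over Ctrl was -3.88 (-4.23 to -3.54) after thinning and -3.02 at full depth, where 156 barcodes (6.19%) in EC-Ang2 and 1392 (50.2%) in Ctrl held 3 or more. The sort fixed the balance of leukocytes and endothelial cells, so a share among myeloid barcodes does not separate fewer microglia from more infiltrating cells.

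Microglia-like barcodes held fewer Ccr2 and Ly6c2 UMIs for their depth than those with none of the 7. Ccr2 was at 43.4 CPM in the microglia-like barcodes of mIgG1, 49.1 in Ang2 Ab, 50.1 in Ctrl, against 52.1 in EC-Ang2, and Ly6c2 was at 295, 342, 163 and 486 CPM. At full depth a Ly6c2 UMI was found in 54.5%, 46.5%, 20.1% and 43.3% of them. Ccr2, the chemokine receptor by which monocytes leave the marrow, went from 133 CPM in barcodes with none of the 7 to 20.2 CPM in those with 5 or more in mIgG1. The same change was from 170 to 40.1 CPM in Ang2 Ab and from 246 to 26.3 CPM in Ctrl. EC-Ang2 had 189 CPM in the first class and 0 UMIs in the 8 barcodes of the last. Ly6c2, the antigen of inflammatory monocytes, went from 978 to 182 CPM, from 1362 to 158, from 1441 to 72.1 and from 2591 to 36.1 in mIgG1, Ang2 Ab, Ctrl and EC-Ang2, over the same classes, of which the last held 20, 53, 446 and 8 barcodes.

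Sorted by detection of Ccr2 and Ly6c2 after thinning, barcodes with neither gene had the highest mean number of members, by a small and unsteady margin in EC-Ang2. In Ctrl a mean of 3.86 of the 9 members was detected in barcodes with neither, 1.75 with Ccr2 alone, 1.61 with Ly6c2 alone and 1.16 with both. The means were 1.43, 1.11, 1.11 and 1.01 in mIgG1 and 1.66, 0.931, 1.01 and 0.849 in Ang2 Ab. In EC-Ang2 they were 0.851, 0.691, 0.653 and 0.786, so that barcodes with neither and with both differed by 0.06. Over 12 draws of the thinning that difference ran from 0.06 to 0.23, and it was -0.12 at full depth and -0.29 without cycling barcodes. Csf1r was detected in 34.3% of the EC-Ang2 barcodes with neither and 58.1% of those with both. Over the 7 enriched genes the means with neither and with both were 0.686 and 0.254 in mIgG1, 0.933 and 0.209 in Ang2 Ab, 2.71 and 0.454 in Ctrl, and 0.431 and 0.158 in EC-Ang2.

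Microglia-like barcodes made up 57.0% (54.6 to 59.4) of the Ctrl barcodes with neither gene and 3.05% (1.40 to 5.71) of those with both. These shares were 9.51% and 1.02% in mIgG1, 16.5% and 1.93% in Ang2 Ab, and 6.85% and 0.798% in EC-Ang2. Barcodes with neither gene held 77.0%, 72.9%, 88.3% and 70.1% of all microglia-like barcodes in mIgG1, Ang2 Ab, Ctrl and EC-Ang2. Restricting the comparison to barcodes with neither gene left a log2 ratio of share of -3.06 in EC-Ang2 over Ctrl.

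The few microglia-like barcodes with both Ccr2 and Ly6c2, numbering 5, 11, 9 and 4, were deep. Their median was 15316, 11688, 12316 and 12482.5 UMIs, against 11182, 8900, 5936.5 and 6024 for those with neither. Scrublet, a caller of doublets, marked 1, 2, 3 and 2 of them, and their part in the joint detection was not tested. Ly6c2 shares most of its sequence with its neighbour Ly6c1, an endothelial gene at 6475 to 9046 CPM in endothelial-marked barcodes, where Ly6c2 was at 23.7 to 48.7 CPM, so single Ly6c2 UMIs are uncertain.

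**Figure D3:**
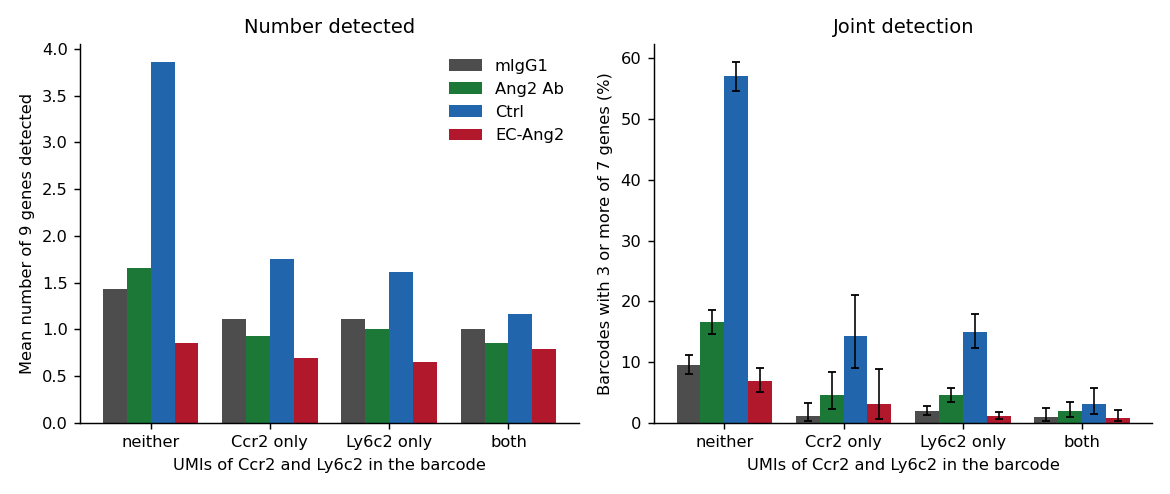
The left panel gives the mean number of the 9 members detected per thinned barcode (bars from 0, without error) and the right panel the share of microglia-like barcodes (%, with exact binomial 95% bars) in barcodes with neither Ccr2 nor Ly6c2, one of them, or both. Ctrl falls from 3.86 members with neither to 1.16 with both, and EC-Ang2 from 0.851 to 0.786.

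The level of each member was next read in barcodes chosen without it. For an enriched gene these were barcodes with given numbers of the other 6, and for Cx3cr1 and Csf1r of all 7. From one class to the next the level was higher for every member in mIgG1, Ang2 Ab and Ctrl. In EC-Ang2 the order was broken at 1 step for P2ry12, Sall1, Gpr34, Fcrls and Cx3cr1. There Sall1 had 0 UMIs in 18 barcodes with 4 or more others, Cx3cr1 was at 529 CPM with 3 and 393 with 4 or more, and Gpr34 was at 77.1 CPM with 2 others and 63.6 with 3. From none to 4 or more, P2ry12 went from 11.1 to 314 CPM in mIgG1, from 10.9 to 324 in Ang2 Ab, from 25.1 to 641 in Ctrl and from 13.3 to 348 in EC-Ang2. Olfml3 went from 78.3 to 953, from 59.2 to 1184, from 81.7 to 1704 and from 27.1 to 1083 CPM.

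Csf1r was present with or without the others. It was at 411, 319, 378 and 328 CPM in barcodes with none and at 1335, 1429, 1913 and 1447 CPM in those with 4 or more. Cx3cr1 was at 68.6 CPM without the others in mIgG1, 36.8 in Ang2 Ab, 38.5 in Ctrl, with 20.2 in EC-Ang2, and at 630, 685, 708 and 393 CPM with 4 or more. The free RNA of each library would give at most 1.47% of any member's level in microglia-like barcodes. In barcodes with none of the 7 it would give 2.92% to 5.75% of Csf1r, 3.78% to 13.7% of Cx3cr1 and 10.4% to 86.0% of the others. Both classes were chosen by the 7 genes, which moves the levels of those genes but not the expected free RNA. In barcodes with both Ccr2 and Ly6c2, not chosen by the members, it would give 2.21% to 4.02% of Csf1r and 2.08% to 6.25% of Cx3cr1. For the 7 it would give 5.42% to 64.8% there, the highest being Sall1 in EC-Ang2 with 1 UMI.

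**Figure D4:**
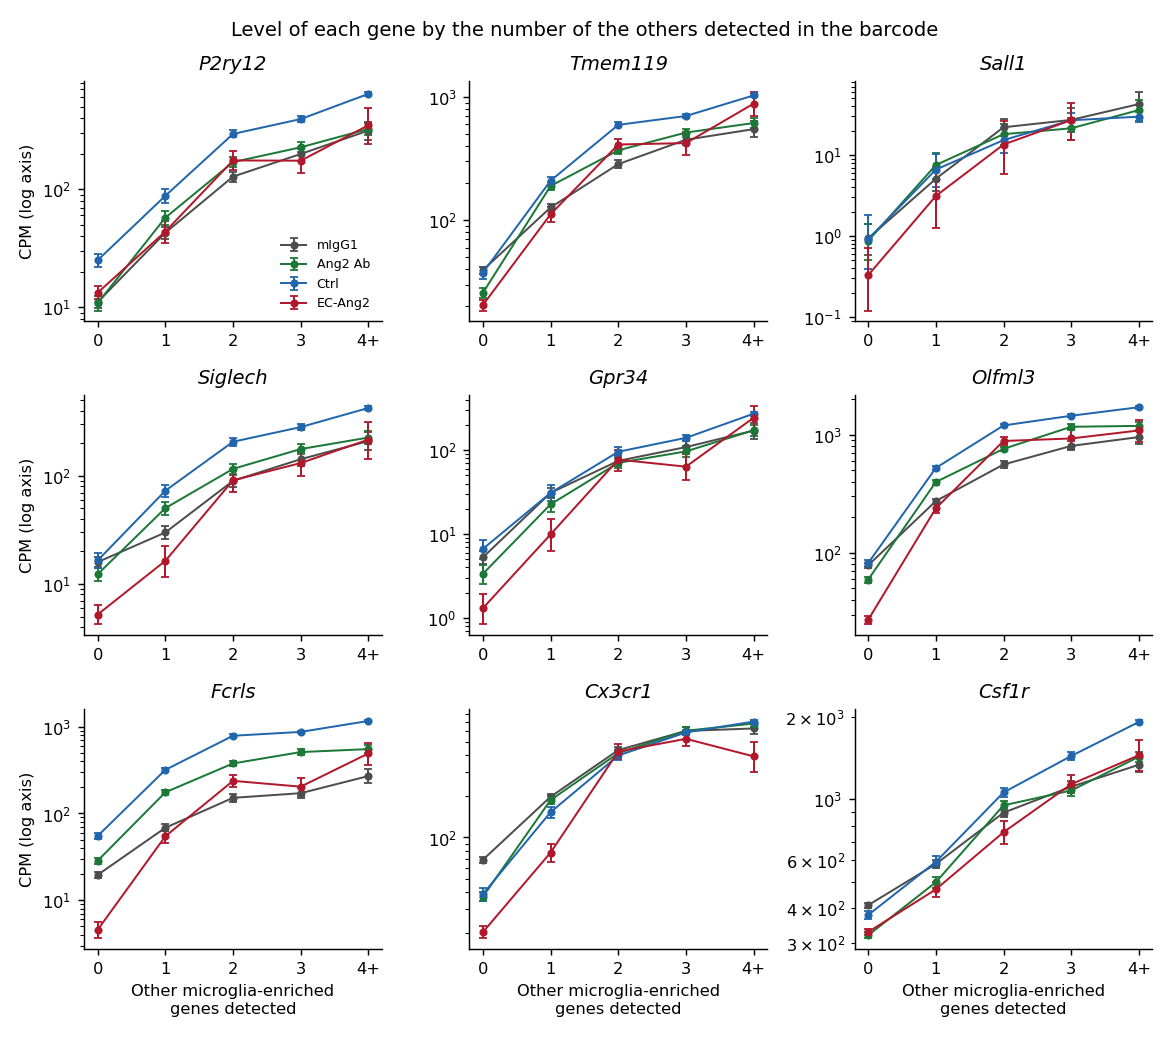
Each panel plots the level of one member (CPM, log axis, Poisson 95% bars) against the number of other enriched genes detected after thinning, for the 4 libraries; a class with 0 UMIs has no point. Csf1r starts at 319 to 411 CPM with none of the others, whereas P2ry12 starts at 10.9 to 25.1 CPM.

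Over all myeloid barcodes, a size rule counted a gene as higher or lower where its CPM differed by 1.5-fold or more and it had 50 or more UMIs in the pair. In Ang2 Ab over mIgG1, 3 of the 9 members were higher and none was lower, against 5.62% of 11745 genes higher and 3.09% lower. These were Fcrls (log2 ratio 1.35, 1.27 to 1.43), P2ry12 (0.60, 0.49 to 0.71) and Olfml3 (0.59, 0.54 to 0.64). The median of the 9 was 0.45, and that of all genes was 0.04. This level moves with the share of microglia-like barcodes.

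The cycling barcodes weighed on these values. A barcode was called cycling when it held UMIs of 3 or more of 12 cell-cycle genes (Mki67, Top2a and others). The rule was read at full depth, so deeper barcodes met it more easily. After thinning, the most detected of the 12 was found in 37.9% to 48.9% of barcodes with none of the 7 enriched genes. In the microglia-like barcodes of Ctrl it was found in 69.9%. Whether the barcodes called cycling were dividing cells was not tested. When cycling barcodes were left out, the median of the 9 members in Ang2 Ab over mIgG1 was 0.02. Fcrls then was at 58.1 CPM in Ang2 Ab and 32.2 in mIgG1, a log2 ratio of 0.85 (0.71 to 1.00). P2ry12 was at 0.28, Olfml3 at 0.01, Cx3cr1 at -0.47 and Csf1r at -0.32 on the log2 scale. Cycling barcodes were 92 of the 165 microglia-like barcodes in mIgG1, 200 of 314 in Ang2 Ab, 638 of 1087 in Ctrl, against 49 of 67 in EC-Ang2. Over all myeloid barcodes they were 1040 of 3610, 937 of 3591, 1120 of 2773 and 479 of 2521 in the same order. Without cycling barcodes the share of microglia-like barcodes was 2.84%, 4.30%, 27.2% and 0.881%. The median depth of those left was 8824, 6585.5, 4738 and 6194 UMIs.

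In EC-Ang2 over Ctrl all 9 members were lower over the myeloid barcodes, against 23.6% of 11323 genes lower and 4.84% higher. The log2 ratios ran from -4.44 (-4.57 to -4.31) for Fcrls to -1.42 (-1.45 to -1.38) for Csf1r, with a median of -3.20 and -0.21 for all genes. Gpr34 was at -3.77, Siglech at -3.73, P2ry12 at -3.26, Olfml3 at -3.20, Sall1 at -3.07, Tmem119 at -3.06 and Cx3cr1 at -2.67. Without cycling barcodes the median was -4.02.

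Within barcodes that held 3 or more of the other enriched genes, the differences in EC-Ang2 over Ctrl were smaller for all 9 members, whereas that of Fcrls in the antibody pair was not. In Ang2 Ab over mIgG1, Fcrls alone passed the size rule, going from 198 CPM in 128 barcodes to 523 CPM in 204, a log2 ratio of 1.40 (1.22 to 1.58). Fcrls was detected in 32.8% of those barcodes in mIgG1 and 62.3% in Ang2 Ab. By the same rule over all genes in the microglia-like barcodes, 9.70% of 7419 genes were higher and 2.94% lower, so 1 of 9 is near the background. Olfml3 was at 846 CPM in mIgG1 and 1170 in Ang2 Ab (0.47, 0.35 to 0.59).

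The remaining members of the antibody pair lay close together. P2ry12 was at 230 and 256 CPM in mIgG1 and Ang2 Ab (0.15, -0.03 to 0.34), and Tmem119 at 476 and 546 (0.20, 0.05 to 0.34). Siglech was at 163 and 193 CPM, Gpr34 at 126 and 122, and Sall1 at 32.7 and 27.2, where the Sall1 interval of -0.74 to 0.21 included 0. Cx3cr1 was at 614 and 640 CPM (0.06, -0.04 to 0.16), and Csf1r at 1188 and 1224 CPM (0.04, -0.03 to 0.11). The median of the 9 was 0.15, beside 0.11 for all genes in the microglia-like barcodes. When these barcodes were chosen at full depth, the median was 0.48 and Fcrls was at 1.41.

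In EC-Ang2 over Ctrl, 6 of the 9 members were lower within such barcodes and none was higher, against 22.1% of 9032 genes lower and 6.23% higher in the microglia-like barcodes. Fcrls went from 1022 CPM in 868 Ctrl barcodes to 264 CPM in 46 of EC-Ang2, a log2 ratio of -1.95 (-2.22 to -1.70). It was detected in 81.8% of those Ctrl barcodes and 30.4% of the EC-Ang2 barcodes. P2ry12 went from 526 to 207 CPM (-1.34, -1.63 to -1.07), Siglech from 362 to 152 CPM (-1.26, -1.59 to -0.94) and Gpr34 from 222 to 104 CPM (-1.10, -1.47 to -0.76).

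Olfml3 and Tmem119 were the other members past the size rule. Olfml3 was at 1579 CPM in 814 Ctrl barcodes and 993 CPM in 22 of EC-Ang2 (-0.67, -0.88 to -0.46), and Tmem119 at 874 and 562 CPM (-0.64, -0.87 to -0.42). Csf1r was at 1761 and 1200 CPM (-0.55, -0.65 to -0.46), and Cx3cr1 at 670 and 501 CPM (-0.42, -0.58 to -0.27). Sall1 was at 28.8 CPM with 265 UMIs in Ctrl and 21.4 CPM with 16 UMIs in EC-Ang2, and its interval of -1.25 to 0.30 included 0. The median of the 9 was -0.67, beside -0.11 for all genes.

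The microglia-like barcodes of Ctrl held more of the enriched genes each, with 304 of 1087 at exactly 3 genes, compared with 48 of 67 in EC-Ang2. Levels were therefore also read in barcodes with exactly 3 of the others, a choice made after seeing the data. In EC-Ang2 over Ctrl the median was -0.73 and 6 members were lower, with Fcrls at -2.10 (-2.45 to -1.77), P2ry12 at -1.17, Cx3cr1 at -0.16 (-0.33 to 0.02) and Sall1 at 0.01. The share of all genes that were lower was not computed for this class. Over all microglia-like barcodes of this pair it was 22.1%. In Ang2 Ab over mIgG1 the median was 0.19 and Fcrls was at 1.57 (1.35 to 1.80). Median depth of the microglia-like barcodes was 11893 UMIs in mIgG1, 9374 in Ang2 Ab, 6347 in Ctrl, against 9372 in EC-Ang2.

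**Figure D5:**
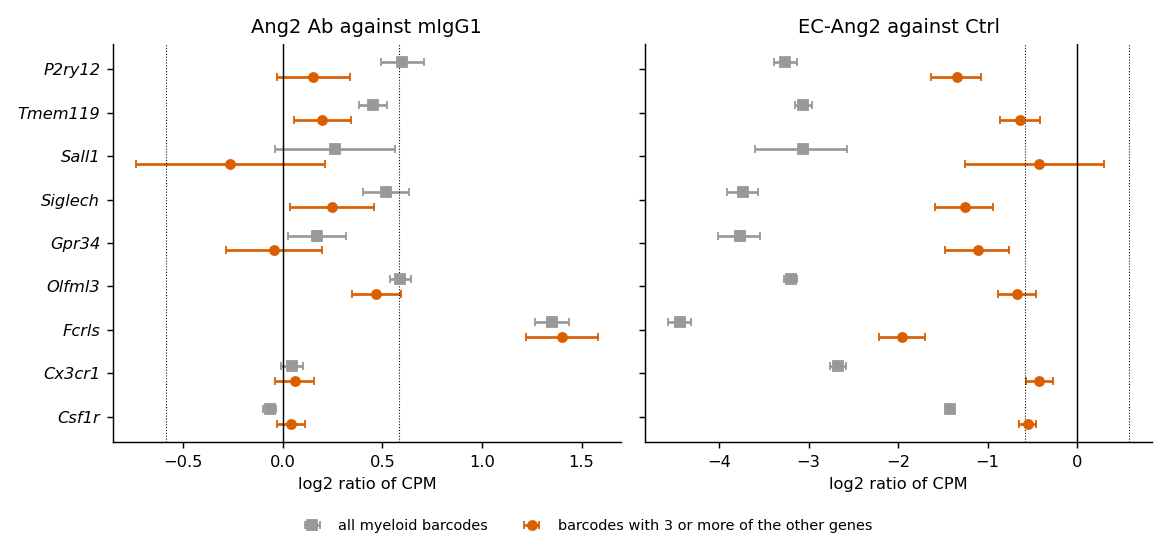
The log2 ratio of each member (CPM, treated over control, 95% bars for counting error) is shown for Ang2 Ab over mIgG1 and EC-Ang2 over Ctrl, over all myeloid barcodes (grey squares) and over barcodes with 3 or more of the other enriched genes (orange circles), with dotted lines at 1.5-fold. Fcrls is at 1.35 and 1.40 in the first pair and at -4.44 and -1.95 in the second.

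Of the ligands of these receptors, Csf1 was at 22.1 CPM in the myeloid barcodes of mIgG1, 39.97 in Ang2 Ab, 84.4 in Ctrl, against 46.8 in EC-Ang2. In the granulocyte-marked barcodes among these, 48, 136, 329 and 348 in number, it was at 107, 313, 306 and 397 CPM. Their part in the myeloid values was not tested. Within microglia-like barcodes Csf1 was at 69.7, 76.5, 88.3 and 78.8 CPM with overlapping intervals between the libraries of each pair. Il34 and Cx3cl1, the neuronal ligands of Csf1r and Cx3cr1, had 0 to 3 and 1 to 14 UMIs there. Cx3cl1 was at 46.3, 29.8, 37.3 and 23.8 CPM in endothelial-marked barcodes and Il34 at 7.69, 11.1, 8.79 and 7.28 CPM. Tgfb1, which maintains the homeostatic program, was at 349, 372, 367 and 347 CPM in microglia-like barcodes.

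The 9 regulators of the program were read in the microglia-like barcodes. None passed the size rule in Ang2 Ab over mIgG1. In EC-Ang2 over Ctrl 3 of 9 were lower and none was higher, beside 22.1% of all genes lower, and the lower genes included Runx1 at 130 and 69.4 CPM in Ctrl and EC-Ang2 (-0.90, -1.33 to -0.50) and Mef2a at -0.83. The highest values were those of Irf8, at -0.03 (-0.17 to 0.12), and of Spi1, which encodes PU.1, at -0.23 (-0.39 to -0.08). The median of the 9 regulators was -0.48. Over all myeloid barcodes 5 of the 9 were lower in EC-Ang2 than in Ctrl and none was higher, beside 23.6% of all genes lower, and none passed the rule in either direction in the antibody pair. The TGF-beta receptor genes Tgfbr1 and Tgfbr2 were at -0.43 and -0.48.

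A list of 20 other genes, drawn up for the homeostatic program, was counted in the same barcodes. In Ang2 Ab over mIgG1, 1 of 20 was higher and none lower, beside 9.70% of all genes higher, and this was Slc2a5, a fructose transporter, at 15.4 and 33.3 CPM in mIgG1 and Ang2 Ab (1.12, 0.55 to 1.71). Golm1 was next at 0.39, and the lowest were C1qa, of the complement cascade, at -0.31 and Trem2, a lipid receptor of activated microglia, at -0.57. The paper places Trem2 in a pathway that moves microglia away from the homeostatic state, so its values are not a reading of that state. In EC-Ang2 over Ctrl 9 of 20 were lower and none higher, beside 22.1% of all genes lower, with a median of -0.54. Adgrg1, an adhesion receptor, went from 95.8 to 32.0 CPM (-1.58, -2.231 to -0.998) and Cst3, a protease inhibitor, from 20059 to 6760 CPM (-1.57, -1.61 to -1.53). The highest values were those of Crybb1 at 0.36 and Entpd1 at 0.33. Over all myeloid barcodes 18 of the 20 were lower in EC-Ang2 than in Ctrl, beside 23.6% of all genes. In Ang2 Ab over mIgG1 2 were higher (Slc2a5 at 1.46 and Crybb1 at 0.71) and 1 was lower (Trem2 at -0.80), beside 5.62% of all genes higher and 3.09% lower.

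The genes whose detection went most closely with the number of members were ranked among 5813 genes seen in at least 2% of the thinned myeloid barcodes of every library. Cd81 led with a mean correlation of 0.49 over the 4 libraries, followed by the complement genes C1qc (0.43) and C1qa (0.42), Sparc (0.42), Ccl12 (0.41), Ly86 (0.41), Itgb5, Ckb, Ldhb (each 0.39) and C1qb (0.38). For Cd81 the correlation was 0.388 in mIgG1, 0.528 in Ang2 Ab, 0.671 in Ctrl, with 0.358 in EC-Ang2. In the opposite direction were S100a11 (-0.37), S100a6 (-0.35), AA467197 (-0.32), Vim (-0.30), Lgals3 (-0.28), Crip1 (-0.28), Anxa2 (-0.27), Wfdc17 and Msrb1 (each -0.26) and Plac8 (-0.25). These are descriptions over barcodes that share a library and its free RNA.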

How the data were processed

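The deposited tables hold raw UMI counts per gene and barcode for 4 libraries, with empty barcodes included. The authors made them with Cell Ranger 2.1.1 on mm10, and Seurat 2.3.4 is named in the submitters' processing notes. The counts are not normalized. Totals were 66631583, 57954609, 52084739 and 52796061 UMIs in mIgG1, Ang2 Ab, Ctrl and EC-Ang2, so precision is limited by the UMIs of each gene, and intervals cover counting error only.

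Myeloid barcodes were taken by the rule given above. Each was thinned at random to 2000 UMIs for detection, and CPM was summed over full counts. Cycling calls also used full counts. Free RNA was estimated from barcodes with at most 50 UMIs. The 9 members, the other lists and the markers were chosen with earlier results of these data known. All members were named, as were the 2 highest and 2 lowest genes of the longer lists and the 10 genes nearest the members and the 10 in the opposite direction. Values of some single genes of the longer lists are not reported here. Doublets were not removed in the values reported, and an alternative removed the highest Scrublet scores at 0.8% per 1000 barcodes, since the caller's own threshold marked 0.105% of the Ctrl barcodes. The study aimed at 10000 cells per library, and 5427 to 7498 barcodes had 2000 or more UMIs. Barcode sequences shared with another library numbered 68 to 108 among the myeloid barcodes of each library. The size rule and the ratio interval were tested on simulated counts, and thinning was checked against its exact expectation. The other steps had no such check. Python 3.11.15, NumPy 2.4.6, SciPy 1.17.1, pandas 2.3.3, scanpy 1.11.5 and matplotlib 3.10.9 were used.

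Promoters came from RefSeq (GRCm38.p6). Alternatives covered the UMI minimum, the myeloid gate, doublets, mitochondrial share, cycling, endothelial and shared barcodes, the thinning draw, the number of genes required, depth, scaling and the size rule. With 1 library per condition no test between conditions was made.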

Additional observations from a re-analysis of the deposited data

How the results depend on the processing

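No paired analysis was possible because each condition had 1 library, numbered 1 in every group, which gives fewer than 2 shared replicate numbers. Of 116 alternative values of the summary results 85 stayed within the counting interval or 1.5 times the count, and 31 moved. The difference between barcodes with neither and with both of Ccr2 and Ly6c2 in EC-Ang2, small in the values reported, turned its sign in 2 of them. For single members 54 of 71 stayed and 17 moved. In 2 settings (cycling barcodes removed, and 4 or more members required) the within-class median for EC-Ang2 over Ctrl had no value, since Sall1 had 0 UMIs in EC-Ang2. The alternatives with exactly 3 other members and with 12 thinning draws were chosen after seeing the data.

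The log2 ratio of the share of microglia-like barcodes, 0.94 in Ang2 Ab over mIgG1, was 0.60 without cycling barcodes, 0.50 with 2 or more genes required, 1.31 with 4 or more and 0.14 at full depth. For EC-Ang2 over Ctrl, reported as -3.88, it was -4.33 with a minimum of 3000 UMIs, -4.95 without cycling barcodes, -3.30 with 2 or more genes, -5.23 with 4 or more, -3.06 without barcodes holding Ccr2 or Ly6c2 and -3.02 at full depth. The within-class median in Ang2 Ab over mIgG1, 0.15, was 0.35 with 2 or more genes and 0.48 at full depth. The median over all myeloid barcodes was 0.022 without cycling barcodes and 0.33 as a mean of barcode CPM in Ang2 Ab over mIgG1, and -4.02, -3.44 and, centred on all genes, -2.99 in EC-Ang2 over Ctrl.

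The difference between barcodes with neither and with both of Ccr2 and Ly6c2 was, without cycling barcodes, 0.22 in mIgG1, 0.38 in Ang2 Ab, 2.28 in Ctrl, against -0.29 in EC-Ang2. At full depth it was 0.25 in mIgG1, 2.45 in Ctrl, with -0.12 in EC-Ang2, where it was also 0.30 with 3000 UMIs and 0.23 in another thinning draw. At 2-fold, the size rule counted 303 genes over myeloid barcodes and 194 over microglia-like barcodes in the antibody pair, and 1463 and 1073 in the other pair; with 20 UMIs it counted 1726 over microglia-like barcodes of the antibody pair. The cause of these shifts was not tested.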
